A study of Homo sapiens with 8 samples.

Results

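The 10 genes described here belong to the NRF2 antioxidant pathway and were taken by name. They are the transcription factor gene NFE2L2 and its inhibitor KEAP1, the heme and quinone enzymes HMOX1 and NQO1, the glutathione genes GCLC, GCLM and GSR, and the thioredoxin genes TXN, TXNRD1 and SRXN1. All 10 have a row among the 14526 genes of the deposited expression table. RNA-seq compared 4 control cultures with 4 cultures that received sodium benzoate (SB) at 10 mM and were harvested 24 h later. SB is the salt of benzoic acid that is used as a food preservative. Both groups carry the label HepG2, an established line from a human liver tumor, and were grown in DMEM with serum. The labels name no agent for the controls, and no genetic change in either group. The study measured histone lysine benzoylation under SB, and the RNA comparison asks which transcripts differed between these groups.

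NRF2, the protein of NFE2L2, is held in the cytoplasm by KEAP1, which passes it to a CUL3 ubiquitin ligase for degradation. Electrophiles and oxidants modify cysteines of KEAP1, and NRF2 then accumulates, pairs with a small MAF protein and binds antioxidant response elements near its target genes. The targets make glutathione, keep thioredoxin reduced, and clear heme and quinones, and in liver they are known for protection against reactive drug metabolites. NRF2 is controlled largely at the level of its protein, which RNA-seq does not measure.

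The antioxidant response element has the core TGACNNNGC, where N is any base. It was searched on both strands of the 1000 bases before the RefSeq start site of each gene on hg38, as the regulatory sequence that gives this group of genes its name. RefSeq promoters of GRCh38.p14 matched 8 of the 10 genes by symbol; HMOX1 and GSR had no entry. The core lay in the window of 5 of the 8 genes, against 31.8% of 27305 genes with a RefSeq promoter. It was not found in this window for NFE2L2, KEAP1 and SRXN1. In the 5000 bases before the start site it lay at 7 of the 8 genes, against 82.2% of the 27305. From 250 bases before to 50 bases after the start site it lay at 2 of the 8, against 13.6%. The sequences are shown 5′ to 3′ on the strand that reads as the core, with the core in capitals. That of GCLM ended 26 bases before the start site, that of TXNRD1 91 bases, that of NQO1 447 bases, that of TXN 573 bases and that of GCLC 862 bases. A second GCLC sequence from 3148 bases before the start is shown because its core has the same letters as that of NQO1, TGACTCAGC, a run found within 5000 bases of 6.7% of the 27305 genes. A match of letters is a description and not evidence of binding.
GCLM, chr1:93909446-93909474, plus strand: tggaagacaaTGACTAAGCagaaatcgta
TXNRD1, chr12:104215670-104215698, plus strand: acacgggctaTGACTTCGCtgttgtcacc
NQO1, chr16:69726997-69727025, minus strand: gcagtcacagTGACTCAGCagaatctgag
TXN, chr9:110257070-110257098, plus strand: tgctccagctTGACACAGCggtttagtgc
GCLC, chr6:53545953-53545981, plus strand: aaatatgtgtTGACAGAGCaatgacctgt
GCLC, chr6:53548239-53548267, plus strand: cgcctccccgTGACTCAGCgctttgtgcg

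The values are RPKM, read counts divided by gene length in kilobases and by a library size that the authors scaled with TMM factors. Whole reads could be recovered from them, and a library held between 36990075 and 44878414 reads on the genes of the table. Control replicate 1 stood apart. The chi-square of its reads against the other controls was 33.4 to 38.4 per degree of freedom, against at most 3.80 for any other pair within a group. Of 20 hepatocyte markers, 18 had no row, ALB, APOA1 and TTR among them, and TF, the transferrin gene, had a row at 0.192 ± 0.0188 RPKM in controls and 0.379 ± 0.0748 RPKM with SB (SD, n = 4). The defining transcripts of the labelled liver line have no row in the table used here, and the cells are called here by their treatment only. Of 8 leukocyte markers 3 had a row, with a sum of 3.28 to 3.77 RPKM in controls and 3.35 to 4.14 RPKM with SB. Of 8 fibroblast markers 4 had a row (6.63 to 8.97 RPKM and 6.62 to 6.98 RPKM). Of 8 epithelial markers 5 had a row, with 57.0 to 67.4 RPKM in controls and 71.1 to 72.4 RPKM with SB, nearly all from KRT8 and KRT18. The part of these markers in the results below was not tested.

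The genes did not move one way. SRXN1, KEAP1 and GCLC were higher with SB, TXN, TXNRD1, GSR, NQO1 and GCLM were lower, and NFE2L2 and HMOX1 did not pass the test with all 8 libraries. Groups were compared with limma on log2(RPKM + 1), and the difference between their means on that scale is given as log2FC with its standard error (SE). The scale understates changes of genes near 1 RPKM. A gene was called at a Benjamini-Hochberg adjusted p below 0.05 over the whole table. By this rule 3 of the 10 genes were higher and 5 lower, beside 33.0% of all genes called higher and 32.6% called lower. The same 3 genes had all SB-treated values above all control values, and the same 5 all below, beside 31.0% and 30.5% of all genes. The median log2FC of the 10 was -0.18, and over all genes it was 0.00. Their range, from -0.54 to 0.49, compares with -0.52 to 0.50 for the central 90% of genes in the table. Over all called genes 50.2% were higher, and 65.1% with library sizes without TMM factors, where the median log2 ratio of RPKM over all genes, taken without a pseudocount, was 0.11 in place of 0.01. The 10 genes kept their sign there. In such bulk samples fewer cells with a transcript and less of it in each cell cannot be told apart.

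Direction varied with level over the whole table. When the table was cut into 4 classes of equal size by mean RPKM, 60.5% of the 3632 genes of the highest class were lower with SB and 13.2% higher. In the lowest class 15.1% were lower and 42.8% higher. GSR, TXN, TXNRD1 and SRXN1 are in the highest class, where the median change was -0.21, and NFE2L2, KEAP1, HMOX1 and GCLC in the next, with 32.1% lower and 32.4% higher. GCLM is in the class after that, with 22.8% lower and 43.4% higher, and NQO1 in the lowest. GCLM and NQO1 thus fell in classes where most called genes rose. SRXN1 rose in a class where most called genes fell, but its place there depends on its own rise. That class begins at a mean of 21.2 RPKM over the 8 libraries, and the control mean of SRXN1 was 19.7 RPKM. TXN, TXNRD1 and GSR went the way of most called genes at their level. Direction also varied with counted gene length. In the shortest of 4 such classes, which holds TXN and HMOX1, 18.9% were higher and 47.9% lower, and in the longest, which holds none of the 10, 48.3% and 18.3%. KEAP1, NQO1, GSR and SRXN1 are in the class above the shortest, with 27.8% higher and 36.2% lower. There NQO1 and GSR went with the larger share, and KEAP1 and SRXN1 against it. TXNRD1, GCLM, GCLC and NFE2L2 are in the class below the longest, with 36.7% higher and 28.1% lower. There TXNRD1 and GCLM fell where more genes of their length rose, and GCLC rose with them. The part of level and length in these results was not tested.

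**Figure D1:**
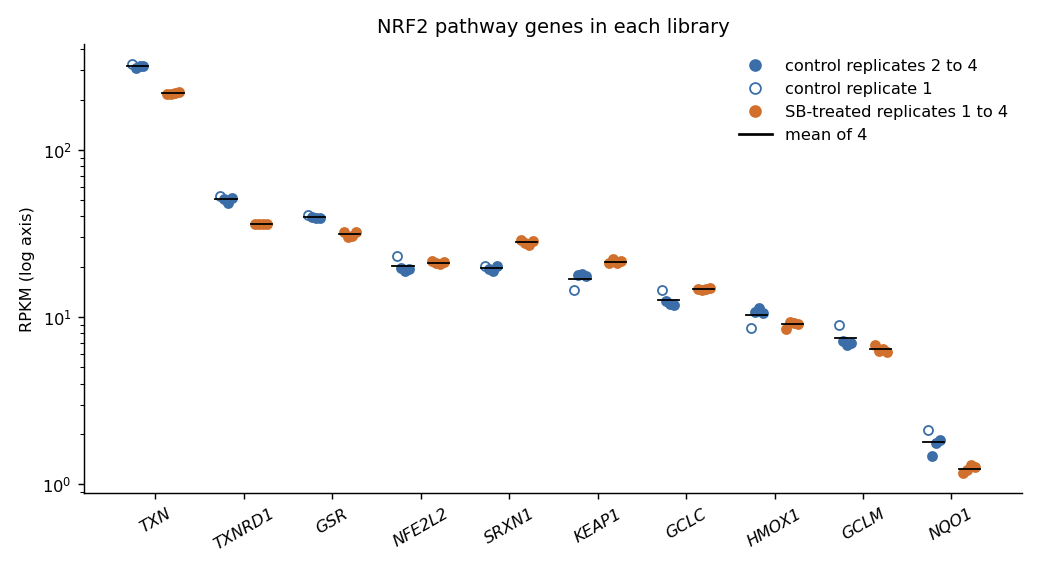
RPKM on a log axis for the 10 genes in each library, blue for control and orange for SB-treated replicates, with control replicate 1 as an open circle and a bar at the mean of 4. The order runs from TXN at 318 RPKM to NQO1 at 1.79 RPKM in controls, and control replicate 1 lies off the other controls for NFE2L2, KEAP1, GCLC, HMOX1 and GCLM.

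Per length, TXN was the most abundant of the 10 in controls (318 ± 5.65 RPKM, SD, n = 4), above 99.1% of the genes in the table or level with them. TXNRD1 (51.0 RPKM) and GSR (39.5 RPKM) followed. NFE2L2 at 20.3 RPKM and SRXN1 at 19.7 RPKM overlapped in their values, as did KEAP1 (17.0) and GCLC (12.7), and HMOX1 (10.3) and GCLM (7.50). NQO1 was lowest, at 1.79 ± 0.260 RPKM. In SB-treated cells SRXN1 stood in the fourth place above KEAP1 and NFE2L2, with no overlap, and only KEAP1 and NFE2L2 were neighbours whose values overlapped, at 21.5 and 21.2 RPKM. The plot of RPKM by library shows both orders.

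Of the regulators, KEAP1 rose and NFE2L2 did not pass the test. KEAP1 encodes the adaptor that targets NRF2 for degradation and lies on chromosome 19 of hg38 from 10486125 to 10503558. It was at 14.4, 17.8, 18.0 and 17.7 RPKM in control replicates 1 to 4, and at 21.0, 22.1, 21.2 and 21.7 RPKM in SB-treated replicates 1 to 4. Every SB-treated value was above every control value, and control replicate 1 was the lowest of the 8. The mean rose by 26.7%, for a log2FC of 0.33 (SE 0.065) at an adjusted p of 0.00154 in limma, and the change was 0.26 without control replicate 1 (adjusted p = 2.14e-05). NFE2L2 lies on chromosome 2 from 177218667 to 177392756. It was at 23.1, 19.7, 19.0 and 19.3 RPKM in control and at 21.6, 21.0, 20.7 and 21.4 RPKM in SB-treated replicates. Control replicate 1 was the highest of the 8, while the other controls lay below all SB-treated values. The log2FC was 0.06 with a 95% interval from -0.07 to 0.19 (adjusted p = 0.363). Without control replicate 1 it was 0.12 (adjusted p = 0.00221), so the call changes with that library, and without control replicate 3 or 4 it was 0.03 or 0.04, neither of which passed the threshold. Without TMM factors it was 0.16 (adjusted p = 0.0254). In that setting the median log2 ratio over all genes, taken without a pseudocount, was 0.11 in place of 0.01.

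Within the thioredoxin system, TXN and TXNRD1 fell together and SRXN1 rose. TXN encodes thioredoxin, the small protein that reduces disulfides, and lies on chromosome 9 from 110243810 to 110256507. Its controls were at 325, 311, 318 and 316 RPKM and its SB-treated replicates at 216, 216, 218 and 222 RPKM. The groups were far apart beside their spread, and the mean fell by 31.4%. The log2FC was -0.54 (SE 0.031) at an adjusted p of 9.64e-07 in limma, the largest in size among the 10 genes under this fit. TXNRD1 encodes the cytosolic selenoenzyme that recharges thioredoxin with electrons from NADPH, and lies on chromosome 12 from 104215779 to 104350307. It was at 52.9, 51.0, 48.4 and 51.7 RPKM in control and at 36.3, 35.9, 36.2 and 36.1 RPKM in SB-treated replicates. Its values also did not overlap, and the 4 SB-treated ones had an SD of 0.156 RPKM. The mean fell by 29.2%, for a log2FC of -0.49 (SE 0.036) at an adjusted p of 3.30e-06.

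SRXN1 encodes sulfiredoxin, which restores peroxiredoxins that peroxide has over-oxidized, and lies on chromosome 20 from 646615 to 653200. It was at 20.2, 19.4, 18.9 and 20.2 RPKM in control replicates and at 28.8, 27.7, 27.0 and 28.6 RPKM in SB-treated replicates. All SB-treated values were higher, and control replicate 1 lay among the other controls. The mean rose by 42.6%, the largest rise of the 10 genes, for a log2FC of 0.49 (SE 0.038) at an adjusted p of 4.35e-06 in limma. SRXN1 was at rank 788 of 14526 genes when these were ordered from the largest rise to the largest fall, and TXN at rank 13918.

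The glutathione genes also divided. GCLC and GCLM encode the catalytic and the modifier subunit of glutamate-cysteine ligase, the rate-limiting enzyme of glutathione synthesis, and GSR encodes the reductase that returns oxidized glutathione to its reduced form. GCLC lies on chromosome 6 from 53497341 to 53616970. It was at 14.5, 12.6, 11.9 and 11.8 RPKM in control and at 14.7, 14.6, 14.7 and 15.0 RPKM in SB-treated replicates. The groups did not overlap, but control replicate 1, at 14.50 RPKM, came close to the lowest SB-treated value of 14.59 RPKM. The mean rose by 16.1%, for a log2FC of 0.21 (SE 0.058) at an adjusted p of 0.0114 in limma. Without control replicate 1 it was 0.27 (adjusted p = 2.18e-05). GCLM lies on chromosome 1 from 93885199 to 93909456. It was at 9.03, 7.20, 6.81 and 6.98 RPKM in control and at 6.80, 6.29, 6.43 and 6.17 RPKM in SB-treated replicates. The lowest control and the highest SB-treated value differed by little, and control replicate 1 was well above the rest. The mean fell by 14.4%, for a log2FC of -0.19 (SE 0.075) at an adjusted p of 0.0469, close to the threshold. Without control replicate 1 the change was -0.11 (adjusted p = 0.0176). The call was lost without control replicate 2 (adjusted p = 0.0618) and without SB-treated replicate 1, 2, 3 or 4 (0.0524, 0.0983, 0.0870 and 0.109), and without TMM factors, where the change was -0.10 (0.255).

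GSR lies on chromosome 8 from 30678066 to 30727846. Its 4 controls were at 40.7, 39.5, 38.9 and 38.9 RPKM and its 4 SB-treated replicates at 32.2, 30.3, 30.8 and 32.1 RPKM. There was no overlap and control replicate 1 was close to the other controls. The mean fell by 20.6%, for a log2FC of -0.32 (SE 0.035) at an adjusted p of 3.41e-05 in limma.

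The heme and quinone enzymes were both at lower means with SB, and NQO1 alone passed the test. NQO1 encodes a quinone reductase that is widely used as a readout of NRF2, and lies on chromosome 16 from 69706996 to 69726668. It was at 2.11, 1.48, 1.76 and 1.83 RPKM in control and at 1.17, 1.22, 1.30 and 1.27 RPKM in SB-treated replicates, from 118 to 236 reads a library. The controls were spread more widely than the SB-treated values and lay above all of them. The mean fell by 30.9%. The log2FC was -0.31 (SE 0.062) at an adjusted p of 0.00155 in limma, and -0.49 with a pseudocount of 0.1, since the gene is near 1 RPKM. HMOX1 encodes heme oxygenase, which opens the heme ring and releases its iron, and lies on chromosome 22 from 35380361 to 35394214. It was at 8.59, 10.8, 11.4 and 10.6 RPKM in control and at 8.51, 9.39, 9.23 and 9.15 RPKM in SB-treated replicates. Only control replicate 1 fell within the SB-treated range, and the other controls were above it. The log2FC was -0.16 with a 95% interval from -0.33 to 0.00 (adjusted p = 0.0751). Without control replicate 1 it was -0.24 (adjusted p = 3.16e-04), so this call too changes with that library. Without TMM factors it was -0.07 (adjusted p = 0.451).

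**Figure D2:**
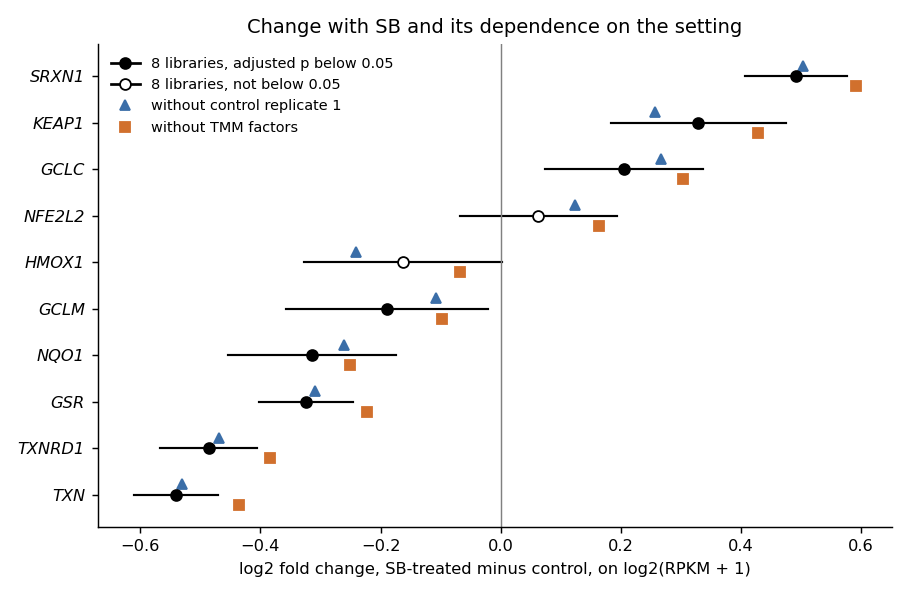
Log2 difference of each gene, SB-treated minus control, on log2(RPKM + 1); circles with 95% intervals are from all 8 libraries (filled where the adjusted p is below 0.05), triangles from the fit without control replicate 1 and squares from library sizes without TMM factors. All 10 genes keep their side of 0, from -0.54 for TXN to 0.49 for SRXN1, and removing control replicate 1 moves NFE2L2 and HMOX1 away from 0 and GCLM toward it.

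Control replicate 1 differed from the other controls along GC content. Over 13290 genes, its distance from the mean of the other controls correlated with the GC content of the canonical GENCODE transcript at Pearson's r = -0.717, a description across genes that are not independent. Among the 10 genes, the pair richest in GC differed in sign from the rest. KEAP1 (60.2% GC) and HMOX1 (57.7% GC) were lower in control replicate 1 than in the other controls, by 0.29 and 0.31 on the log2 scale, as the plot against GC content shows. The other 8 genes, from 36.8% to 51.7% GC, were higher in it, by 0.04 for TXN to 0.33 for GCLM, but their distances did not follow GC throughout, as TXN has the lowest GC content and the smallest distance of the 8. SB-treated replicate 1 leaned the same way against its own group (r = -0.512). With the GC trend of each library removed, a fit chosen after the values were seen, NFE2L2 was called at 0.11 (limma adjusted p = 0.0142) and HMOX1 at -0.20 (adjusted p = 0.00178), and the other 8 genes kept their calls. What set this library apart was not tested.

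**Figure D3:**
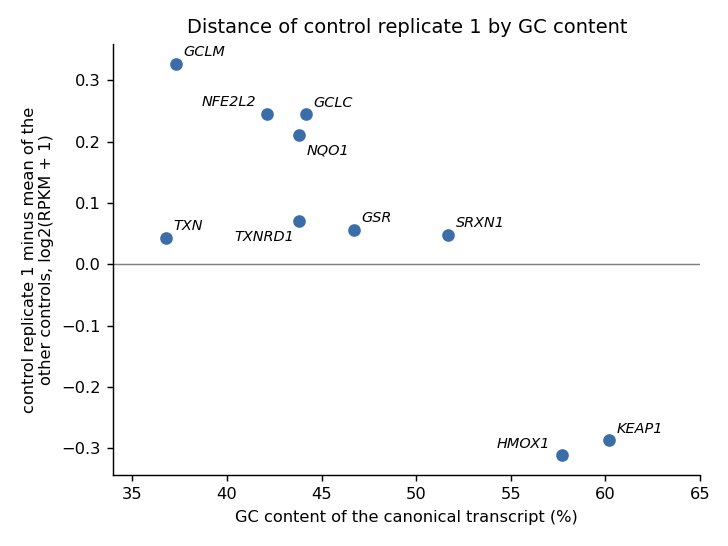
Distance of control replicate 1 from the mean of control replicates 2 to 4, on log2(RPKM + 1), against the GC content of each gene's canonical transcript in percent, 1 point a gene. KEAP1 and HMOX1, at 60.2% and 57.7% GC, lie at -0.29 and -0.31, and the other 8 genes lie above 0.

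Ratios of pairs of genes within a library do not depend on how the libraries were scaled. Of 6 ratios, 4 differed between the groups when all assignments of the 8 libraries to 4 and 4 were enumerated (exact permutation test, two-sided p = 0.0286, the smallest possible, and 0.0429 after Benjamini-Hochberg adjustment over the 6). For SRXN1 over TXN, GCLM over GCLC and GSR over GCLC, both genes already had groups without overlap, in opposite directions. That fixes p at its smallest value, so these tests restate the calls of the single genes. SRXN1 over TXN was 0.0593 to 0.0641 in controls and 0.124 to 0.134 in SB-treated replicates, a log2 difference of 1.05 with SDs of 0.0465 and 0.0434. The GCLM over GCLC ratio, modifier to catalytic subunit, was 0.571 to 0.623 in controls and 0.413 to 0.462 with SB, a log2 difference of -0.44. GSR over GCLC was 2.81 to 3.30 and 2.08 to 2.19, a log2 difference of -0.55. Each of these differences had an exact permutation p of 0.0286 in all 8 tests that left out a library, which the same lack of overlap fixes. The p-values of those tests were not adjusted over the 6 ratios.

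NFE2L2 over KEAP1 was 1.60, 1.11, 1.06 and 1.09 in control replicates 1 to 4 and 1.03, 0.947, 0.975 and 0.983 in SB-treated replicates. The groups did not overlap, and control replicate 1 was far above the rest. NFE2L2 has 42.1% GC and KEAP1 60.2%, and such a ratio does not remove the GC trend of a library. The part of that trend in this ratio was not tested. The log2 difference of -0.28 was -0.14 without control replicate 1 (unadjusted exact permutation p = 0.0571), and the unadjusted p was 0.0857 without any 1 SB-treated replicate. TXNRD1 over TXN was 0.152 to 0.164 in controls and 0.162 to 0.168 with SB. These ranges overlap, and the log2 difference of 0.04 did not pass (exact permutation p = 0.114, adjusted 0.137) beside SDs of 0.0518 and 0.0201. HMOX1 over HMOX2, the second heme oxygenase gene, was 1.04 to 1.38 and 1.27 to 1.42 (exact permutation p = 0.229). HMOX2 itself fell from 8.24 ± 0.115 to 6.67 ± 0.160 RPKM (SD, n = 4), or -0.27 in log2FC (limma adjusted p = 5.87e-05).

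**Figure D4:**
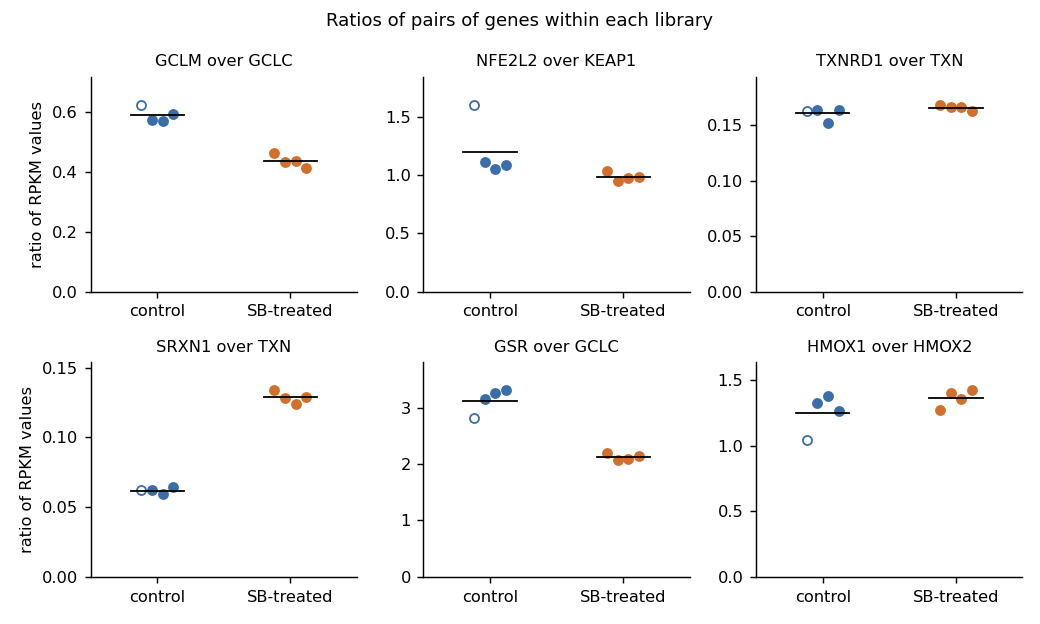
Ratio of the RPKM values of 2 genes in each library, 1 panel a pair, with linear axes from 0; blue points are control and orange points SB-treated replicates, the open circle is control replicate 1, and bars are geometric means of 4. SRXN1 over TXN rises from at most 0.0641 to at least 0.124, while TXNRD1 over TXN overlaps between the groups.

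A list of 9 other genes, the NRF2 control genes, covers partners of NRF2, its degradation, its competitor and the related factor gene NFE2L1. Of these 5 were called higher and 0 lower (limma), beside 33.0% and 32.6% of all genes. Their median log2FC was 0.10, against 0.00 over all genes. At an unadjusted p below 0.05, 1 was lower, RBX1 of the CUL3 ligase (-0.20, adjusted p = 0.0571), whose groups overlapped. The count higher was 4 to 5 over the fits that left out 1 library, where 4311 to 5459 of all genes were higher. The count lower was 1 without control replicate 1 and with median-of-ratios scaling, and 0 with voom on recovered reads. MAFG, a small MAF partner of NRF2, rose from 7.27 ± 0.653 to 14.6 ± 0.125 RPKM (SD, n = 4), or 0.92 in log2FC (adjusted p = 9.90e-07), more than any of the 10 genes above. SQSTM1, the autophagy receptor that binds KEAP1, rose by 0.23 on the log2 scale, and BTRC, of a second ubiquitin ligase for NRF2, by 0.19. NFE2L1, a related transcription factor, rose by 0.18. The fifth was BACH1, the repressor that competes for the same elements, at 0.10 (adjusted p = 0.0342) with groups that overlapped. MAFF and MAFK, the other small MAF genes, were at -0.01 and 0.00 and were not called.

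Of 26 further genes known as NRF2 targets, 20 had a row. Among these 4 were higher and 11 lower, beside the 33.0% and 32.6% of all genes, with a median log2FC of -0.20. Among those that fell were EPHX1, epoxide hydrolase (-0.59), CBR1, carbonyl reductase (-0.55), BLVRB, biliverdin reductase B (-0.51), and TALDO1, transaldolase (-0.49). EPHX1 fell from 30.1 ± 3.25 to 19.5 ± 0.662 RPKM (SD, n = 4, adjusted p in limma = 6.65e-05). The 4 higher genes were ABCC2 (0.32), ABCC1 (0.19), PRDX1 (0.15) and PGD (0.09). At a pseudocount of 0.1, or without control replicate 3 or any 1 SB-treated replicate, 2 of the 20 were called higher. Without TMM factors or with the GC correction 6 were called higher. Over all genes 4812 of 14526 were higher at that pseudocount, 6253 of 14526 without TMM factors and 4917 of 13290 with the GC correction. The main fit had 4787 of 14526, and the fits that left out 1 library had 4311 to 5459. ABCC2 was at 0.398 RPKM in controls and 0.744 RPKM with SB. PGD and ABCC1 were near the threshold (adjusted p = 0.0325 and 0.0427). The ferritin genes FTH1 and FTL fell by 0.32 and 0.38 on the log2 scale. SLC7A11, the cystine carrier, was at -0.08 and not called (adjusted p = 0.255). The median control level of these 20 genes was 33.4 RPKM, against 8.3 RPKM over all genes. In the class of highest mean RPKM 13.2% of genes were higher and 60.5% lower, with a median change of -0.21. The part of this level in the direction of the 20 genes was not tested.

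Genes of the glutathione and thioredoxin systems outside the 10 were mostly lower. Of 21 glutathione and glutaredoxin genes 19 had a row, 1 higher and 14 lower, with a median log2FC of -0.39. Over all genes 33.0% were higher and 32.6% lower, and in the class of highest mean RPKM 13.2% and 60.5%. GPX1, the cytosolic glutathione peroxidase, fell from 140.0 ± 10.6 to 66.3 ± 5.08 RPKM (SD, n = 4), or -1.07 in log2FC (limma adjusted p = 1.61e-06). GLRX (-0.73), GLRX2 (-0.62), GSTM2 (-0.54) and GPX4 (-0.52) came next, and the higher gene was GPX8 (0.35). All 19 thioredoxin and peroxide genes had a row, 3 higher and 12 lower, with a median of -0.32, to be read beside the same shares. TXNIP, which binds and inhibits thioredoxin, fell from 71.5 ± 2.30 to 37.8 ± 0.332 RPKM (SD, n = 4), or -0.90 in log2FC (adjusted p = 1.13e-07). The peroxiredoxin genes PRDX2 (-0.59) and PRDX4 (-0.55) and the thioredoxin-like gene TXNL1 (-0.52) fell, and MSRB3, a methionine sulfoxide reductase, rose by 0.54. The median control level was 27.0 RPKM in the glutathione list and 59.6 RPKM in the thioredoxin list, against 8.29 RPKM over all genes, and the part of this level in their direction was not tested.

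**Figure D5:**
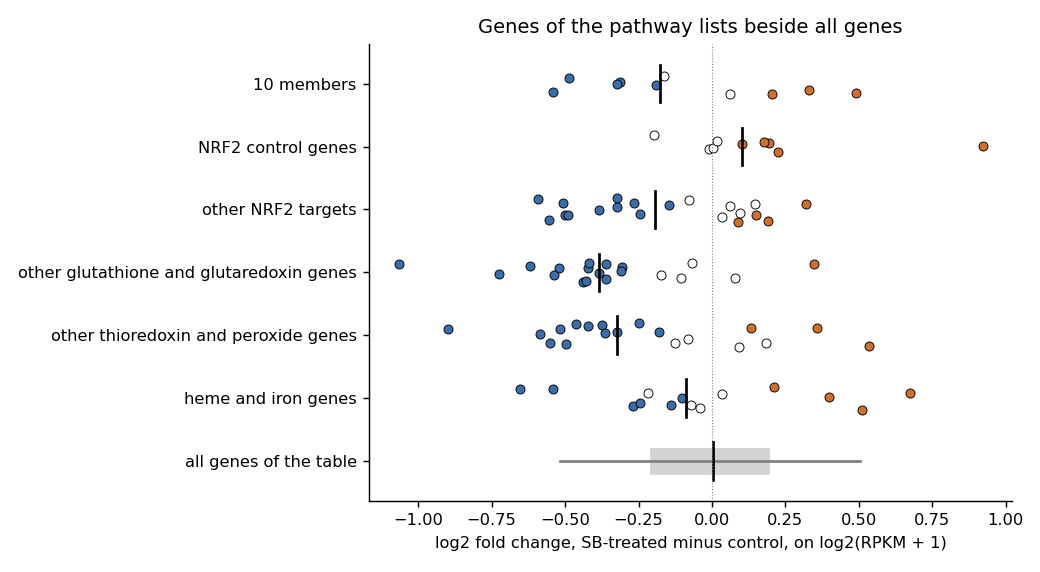
Log2 difference of each gene, SB-treated minus control, by list, with a bar at the list median; orange points were called higher, blue called lower and white not called, and the grey box and line span the central 50% and 90% of all genes. The list medians run from -0.39 for the glutathione and glutaredoxin genes to 0.10 for the NRF2 control genes, and the point farthest right is MAFG at 0.92.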

How the data were processed

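Reads (50-base single, stranded total RNA kit) were mapped by the authors to UCSC hg38 with TopHat2 2.1.0, counted per gene with featureCounts 1.5.0 and scaled with TMM factors in edgeR 3.16.5. Genes above 1 CPM in at least 2 samples were kept. The authors deposited RPKM values for each sample. Their fold change, mean CPM, p-value and FDR columns were not used, and 0 other columns of sample values were left out. The strand setting of the counting is not given in the sources used here.

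RPKM values were tested as deposited with limma 3.58.1 in R 4.3.3, with lmFit and eBayes, Benjamini-Hochberg adjusted over 14526 genes, pseudocount 1 and no filter. Alternatives were a pseudocount of 0.1, a filter at 1 RPKM, other scalings, voom on recovered reads, a replicate block, a GC correction and leaving out each library. Whole reads were recovered for 100% of genes (tolerance 0.02 reads) with Python 3.11.15. Samples were grouped by their labels into 4 control and 4 SB-treated replicates, which the methods call biological; p-values measure the spread between these samples. The 10 genes and the wider lists were chosen with earlier results of these data known. Of each wider list, up to 5 called genes with the largest change and no overlap of groups were to be named, and further genes named were chosen after their values were seen. GENCODE release 44 gave positions and GC content (91.5% of genes). For NFE2L2 and GCLC the RefSeq start site (177264131 and 53545101) lies well inside the GENCODE span given, so the windows before it do too. ChIP-seq was not analysed here, and 1 gene that the rule for named genes selects is not reported here but stays in the counts of its list.

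SRXN1 lies within a second protein-coding gene on the same strand, TXNRD1 holds another, NFE2L2 meets 2 on the opposite strand, and TXN has 7 processed pseudogenes in GENCODE. Reads shared with these could not be told apart.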

Additional observations from a re-analysis of the deposited data

Results flagged for a closer look

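In each group of 4, the gap between the most distant value and its nearest neighbour was set against the whole range and compared with Dixon's 95% critical value. Of 78 groups examined 10 passed, where chance gives about 3.9, and the distant value was control replicate 1 in 5 of them. These 5 were the controls of KEAP1 (0.936 of the range), SQSTM1 (0.95), PRDX2 (0.921), TXNL1 (0.851) and the ratio NFE2L2 over KEAP1 (0.881). In KEAP1 it was at 14.4 RPKM, against 17.8 ± 0.140 RPKM (SD, n = 3) for the others. The distant control was replicate 2 for ALAS1 (0.925) and replicate 3 for the ratio TXNRD1 over TXN (0.931). In the SB-treated group it was replicate 2 for GLRX (0.967), replicate 1 for GPX4 (0.901) and replicate 3 for UROD (0.86).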

How the results depend on the processing

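The log2 fold changes of the 10 genes kept their sign under each alternative run, and those of KEAP1, NQO1, GCLC, GSR, TXN, TXNRD1 and SRXN1 also kept an adjusted p below 0.05. NFE2L2 passed the threshold without TMM factors (0.16, adjusted p = 0.0254) and after the GC correction, which was chosen after seeing the data (0.11 without and with the replicate block). Without TMM factors the median log2 ratio of RPKM over all genes, taken without a pseudocount, moved from 0.01 to 0.11, and 65.1% of called genes were higher, against 50.2%. HMOX1 passed with the replicate number as a block (replicate block, -0.16, adjusted p = 0.0212) and after the GC correction (-0.20 without and with the block). GCLM no longer passed with a pseudocount of 0.1 (-0.21, adjusted p = 0.0541) or without TMM factors (-0.10). Leaving out 1 library at a time gave 0.034 to 0.12 for NFE2L2, -0.24 to -0.12 for HMOX1 and -0.23 to -0.11 for GCLM. Deviations of same-numbered replicates correlated at 0.38, 0.327, 0.173 and -0.16, so the numbers were not taken as pairs. Replicates 1 and 2 of the controls correlated best with their own number, and the other two did not. With the block 4885 genes were higher and 4894 lower, against 4787 and 4740, and apart from HMOX1 no call among the 10 genes changed, while of the 9 NRF2 control genes 1 was lower in place of 0. Depth limits NQO1 most, with 118 reads in its lowest library, and for all values intervals rest on 4 libraries a group.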

Other observations

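Genes of heme and iron handling around HMOX1 included genes called in both directions, and the count lower moved with the setting. Of 14 listed genes, all with a row, 4 were higher and 6 lower (limma, adjusted p below 0.05), beside 33.0% and 32.6% of all genes, with a median log2FC of -0.09. ALAS1, the first enzyme of heme synthesis, fell from 26.7 ± 0.637 to 16.6 ± 0.567 RPKM (SD, n = 4), or -0.65 in log2FC (adjusted p = 8.81e-07), and UROD, a later enzyme of that path, fell by 0.54 on the log2 scale. TFRC, the transferrin receptor that brings iron into cells, rose from 31.2 ± 0.566 to 50.4 ± 1.31 RPKM (SD, n = 4), or 0.67 in log2FC (adjusted p = 5.19e-07). SLC48A1, a heme transporter, rose by 0.51 and SLC40A1, the iron exporter, by 0.40 from 0.911 RPKM, or by 0.68 with a pseudocount of 0.1. CPOX, an enzyme of heme synthesis, was the other gene that rose, by 0.21. The count lower was 3 without TMM factors, 7 with the GC correction and 9 without control replicate 1. It was 4 to 9 over the fits that left out 1 library. Over all genes 3357 of 14526 were lower without TMM factors, 4844 of 13290 with the GC correction and 5511 of 14526 without control replicate 1. Over the fits that left out 1 library 4285 to 5511 of all genes were lower, against 4740 in the main fit.

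The genes whose log2(RPKM + 1) followed that of TXN most closely over the 8 libraries were EBNA1BP2 (Pearson's r = 0.999), CUTC (0.999) and DKC1 (0.999), with log2FCs of -0.70, -0.76 and -0.70. The libraries share their treatment, and 1715 genes had r above 0.95, so such values mostly restate the difference between the groups.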
